A study of Mus musculus with 20 samples.

Results

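H3K27ac peaks of the mouse maxillary process were compared between e11.5 and e13.5, stages given in embryonic days. Both tissues came from wild-type embryos, were dissected from the face and were profiled as mixed cells by ChIP-seq, which sequences the DNA that an antibody against H3K27ac brings down, in a study of which regions of the genome are active as the face develops. Each stage had 1 library. The members of the comparison were chosen by position. The 6571 peaks of the e11.5 library and the 10753 peaks of the e13.5 library were merged wherever they overlapped, which gave 12196 regions, against 42346 regions when the peaks of all 10 H3K27ac libraries of the series were merged. A region was called proximal when it lay within 1 kb of an annotated transcription start site (TSS) and distal otherwise, and it was assigned to e11.5 only, to e13.5 only or to both stages. The other 8 libraries came from the mandibular process, the nasal plates and the nose of wild-type embryos of these stages or of e15.5, and from the e15.5 maxillary process. They were used only to ask whether a region was seen elsewhere. The region named in the labels of the 3 e15.5 libraries differs from that in their peak names, so these libraries were used as a set or by their label.

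H3K27ac is an acetylation of histone H3 that marks active promoters and active enhancers, and unusually wide H3K27ac domains often lie over genes that set cell identity. The maxillary process grows out of the first pharyngeal arch. It is filled mainly with neural crest mesenchyme under a sheet of epithelium, and it builds the upper jaw, the cheek and the secondary palate. At e11.5 it is still a bud being patterned, and by e13.5 palatal shelves have grown from its inner side and the first skeletal condensations have formed. Because whole tissue was profiled, fewer cells of a type and less acetylation per cell cannot be told apart.

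The sequences of 8 sites are printed here, all but the Dnm3 intron at or beside regions of a single stage. Each is written 5′ to 3′ in lower case with every CG dinucleotide in capitals, since CG content separated the classes of region described further on. The first 6 are the 250 bases upstream of a TSS, taken on the strand of the gene from the RefSeq promoter table of GRCm38.p6. Dlx2 (chr2:71546755-71547004, minus strand) and Dlx1 (chr2:71529195-71529444, plus strand) had a promoter peak only at e11.5. Tfap2b (chr1:19211804-19212053, plus strand), Six2 (chr17:85688255-85688504, minus strand) and Shox2 (chr3:66981772-66982021, minus strand) had one only at e13.5, and so did the upstream promoter of Runx2 (chr17:44814628-44814877, minus strand). The printed Runx2 bases lie just outside the region of that peak (chr17:44810178-44814541). Those of Six2 lie only partly within a region (chr17:85688428-85694190). The last 2 are the central 200 bases of distal regions, on the plus strand of GRCm38. They are the widest distal region found only at e11.5, in an intron of Capzb (chr4:139267775-139267974), and the widest distal region shared by both stages, in an intron of Dnm3 (chr1:162020509-162020708).
Dlx2 promoter: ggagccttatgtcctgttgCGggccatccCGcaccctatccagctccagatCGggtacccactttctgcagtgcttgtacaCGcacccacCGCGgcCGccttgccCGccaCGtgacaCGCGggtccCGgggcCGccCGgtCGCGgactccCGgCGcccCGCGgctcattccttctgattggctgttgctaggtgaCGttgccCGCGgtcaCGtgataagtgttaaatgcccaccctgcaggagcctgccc
Dlx1 promoter: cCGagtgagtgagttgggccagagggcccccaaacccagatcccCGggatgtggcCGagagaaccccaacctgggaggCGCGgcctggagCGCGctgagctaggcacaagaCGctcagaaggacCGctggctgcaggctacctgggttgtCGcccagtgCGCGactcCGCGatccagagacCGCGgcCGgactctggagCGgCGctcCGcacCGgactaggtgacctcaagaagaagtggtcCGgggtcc
Tfap2b promoter: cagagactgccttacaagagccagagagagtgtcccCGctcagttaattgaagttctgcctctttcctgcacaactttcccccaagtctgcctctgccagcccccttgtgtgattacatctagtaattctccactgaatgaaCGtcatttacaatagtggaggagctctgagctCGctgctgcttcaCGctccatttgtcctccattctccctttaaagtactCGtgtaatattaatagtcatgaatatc
Six2 promoter: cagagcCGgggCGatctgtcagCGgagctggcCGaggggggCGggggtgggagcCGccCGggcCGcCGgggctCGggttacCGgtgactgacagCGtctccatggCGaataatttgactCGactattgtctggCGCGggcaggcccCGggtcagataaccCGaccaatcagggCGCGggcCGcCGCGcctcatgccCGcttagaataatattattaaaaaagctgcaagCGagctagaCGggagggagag
Shox2 promoter: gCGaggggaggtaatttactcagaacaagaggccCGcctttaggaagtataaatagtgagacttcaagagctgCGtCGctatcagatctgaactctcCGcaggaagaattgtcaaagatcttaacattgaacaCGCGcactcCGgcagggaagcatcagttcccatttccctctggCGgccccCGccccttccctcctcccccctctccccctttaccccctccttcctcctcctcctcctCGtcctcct
Runx2 promoter: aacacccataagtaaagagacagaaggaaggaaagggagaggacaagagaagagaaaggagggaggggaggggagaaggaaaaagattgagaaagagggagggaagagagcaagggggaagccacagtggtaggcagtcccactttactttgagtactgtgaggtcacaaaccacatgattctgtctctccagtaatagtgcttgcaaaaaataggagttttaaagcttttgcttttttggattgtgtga
Capzb intron: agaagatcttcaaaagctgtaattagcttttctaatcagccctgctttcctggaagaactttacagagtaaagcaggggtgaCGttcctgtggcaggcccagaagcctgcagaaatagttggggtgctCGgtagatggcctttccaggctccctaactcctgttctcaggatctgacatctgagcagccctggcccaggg
Dnm3 intron: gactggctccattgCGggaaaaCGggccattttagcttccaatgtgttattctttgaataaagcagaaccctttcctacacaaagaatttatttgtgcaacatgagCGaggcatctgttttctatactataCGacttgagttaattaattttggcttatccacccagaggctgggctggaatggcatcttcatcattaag

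The 6 promoters held 24, 22, 5, 26, 11 and 0 CG dinucleotides in the order printed, against a median of 6 per 250 bases over 32851 RefSeq promoters. The SP/KLF letters GGGCGG, searched on both strands, occurred 1 time upstream of Dlx2, 2 times upstream of Six2 and 1 time upstream of Shox2, and 32.7% of all 32851 promoters held them. Both e11.5-only promoters lay above that median, and the 4 e13.5-only promoters lay on either side of it. By class of gene, the median was 13 for e11.5-only (89 promoters), 16 for e13.5-only (3715) and 18 for shared promoters (3458). Dlx2 and Dlx1 thus held more than the median of their class. The Capzb and Dnm3 centres held 2 and 4 CG dinucleotides.

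The e13.5 list was longer and covered more of the genome. It held 10753 peaks over 21.3 Mb against 6571 peaks over 10.5 Mb at e11.5, and its median peak was 1717 bp wide against 1404 bp. The e11.5 list was the shortest of the 10 libraries, which held between 6571 and 25941 peaks. Distal peaks made up 32.7% of the e11.5 list (95% exact Clopper-Pearson interval 31.6 to 33.9) and 16.8% of the e13.5 list (16.1 to 17.5). All intervals given here cover counting error only. The lists carry no read numbers, so the depth of either library is unknown, and stage and library cannot be told apart. With 1 library per stage no difference has a replicate check or a p-value.

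Distal regions turned over more than proximal ones. Of 3097 distal regions, 1317 were found only at e11.5 (42.5%, interval 40.8 to 44.3), 1028 only at e13.5 (33.2%, 31.5 to 34.9) and 752 at both stages (24.3%, 22.8 to 25.8). Of 9099 proximal regions, 235 were found only at e11.5 (2.58%, 2.27 to 2.93), 4743 only at e13.5 (52.1%, 51.1 to 53.2) and 4121 at both (45.3%, 44.3 to 46.3). Promoters marked at e11.5 were therefore nearly always marked at e13.5 too, while most distal regions were not. Seen from each list, the shared distal regions were 36.3% of those at e11.5 and 42.2% of those at e13.5, and the shared proximal regions were 94.6% and 46.5%. When the e13.5 list was reduced to its 6571 peaks of largest −log10 q, so that both lists had the same yield, distal regions numbered 1765 at e11.5 only, 220 at e13.5 only and 333 at both stages, and proximal regions numbered 706 at e11.5 only and 2321 at e13.5 only. The order of the single-stage distal counts turned with −log10 q of at least 2 (511 at e11.5 and 614 at e13.5) and without peaks under 500 bp (831 and 964).

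**Figure D1:**
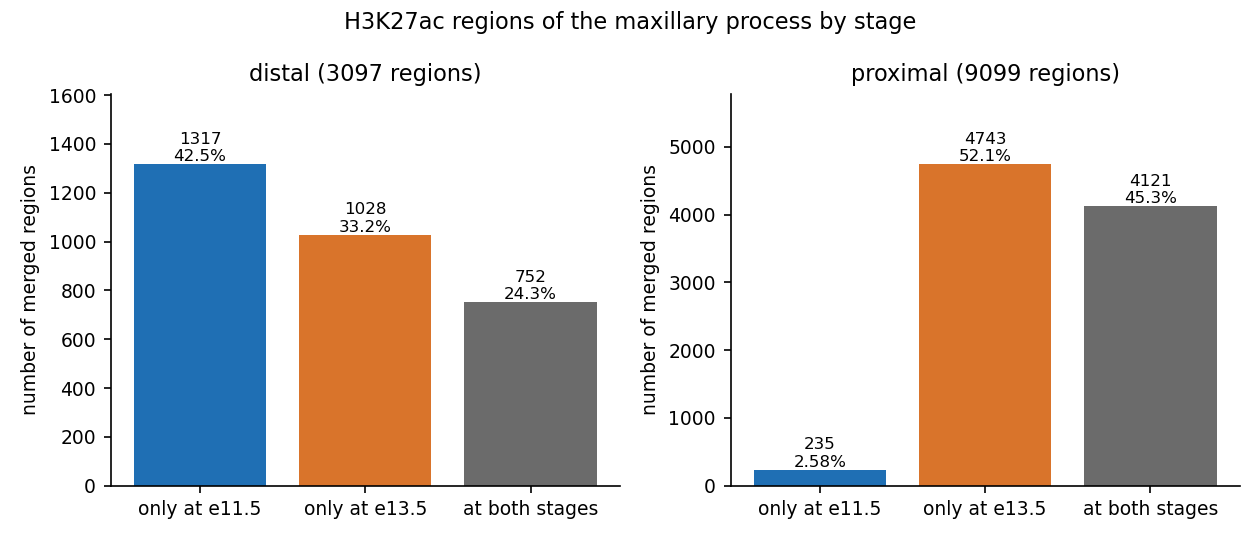
Number of merged H3K27ac regions (vertical axis, starting at 0) found only at e11.5, only at e13.5 or at both stages, for distal regions on the left and proximal regions on the right, each bar with its count and its share of the panel. Distal regions divide into 1317, 1028 and 752 and proximal regions into 235, 4743 and 4121, so the e11.5-only class is mostly distal and the e13.5-only class mostly proximal.

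Regions of a single stage were narrower and weaker than shared ones. Distal regions found only at e11.5 had a median width of 766 bp, against 1898.5 bp at e11.5 for distal regions of both stages. At e13.5 the medians were 1366.5 bp and 2195 bp. Their rank by −log10 q within their own list was also low, with a median percentile of 24.2 for e11.5-only distal regions against 57.5 for shared ones, and of 17.9 against 33.7 at e13.5. A −log10 q under 2 was recorded for 70.3% of the e11.5-only and 51.8% of the e13.5-only distal regions. Most of them did not sit beside a peak of the other stage, since the median gap to the nearest peak of the other list was 69752 bp for e11.5-only and 47015.5 bp for e13.5-only distal regions. The midpoint lay in an intron for 44.8% of e11.5-only, 36.9% of e13.5-only and 34.7% of shared distal regions, and between genes for 51.3%, 58.9% and 61.3%.

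Among regions found at both stages, peaks were wider at e13.5, and more so at promoters. The width of a shared region was the summed width of its peaks in each list. The median log2 ratio of e13.5 to e11.5 width was 0.28 for 752 distal regions (interval 0.24 to 0.31) and 0.49 for 4121 proximal regions (0.48 to 0.52). Of the distal regions 523 were wider at e13.5, 227 narrower and 2 equal, and of the proximal regions 3619, 500 and 2. The median shared distal region measured 1898.5 bp at e11.5 and 2195 bp at e13.5, and the median shared proximal region 1521 bp and 2167 bp. A width at least 1.5-fold larger at e13.5 was seen in 229 distal regions (30.5%) and 1800 proximal regions (43.7%), and a width at least 1.5-fold smaller in 67 (8.91%) and 51 (1.24%). The number of shared proximal regions of at least 5 kb was 109 at e11.5 and 220 at e13.5, and that of distal ones 11 and 42.

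**Figure D2:**
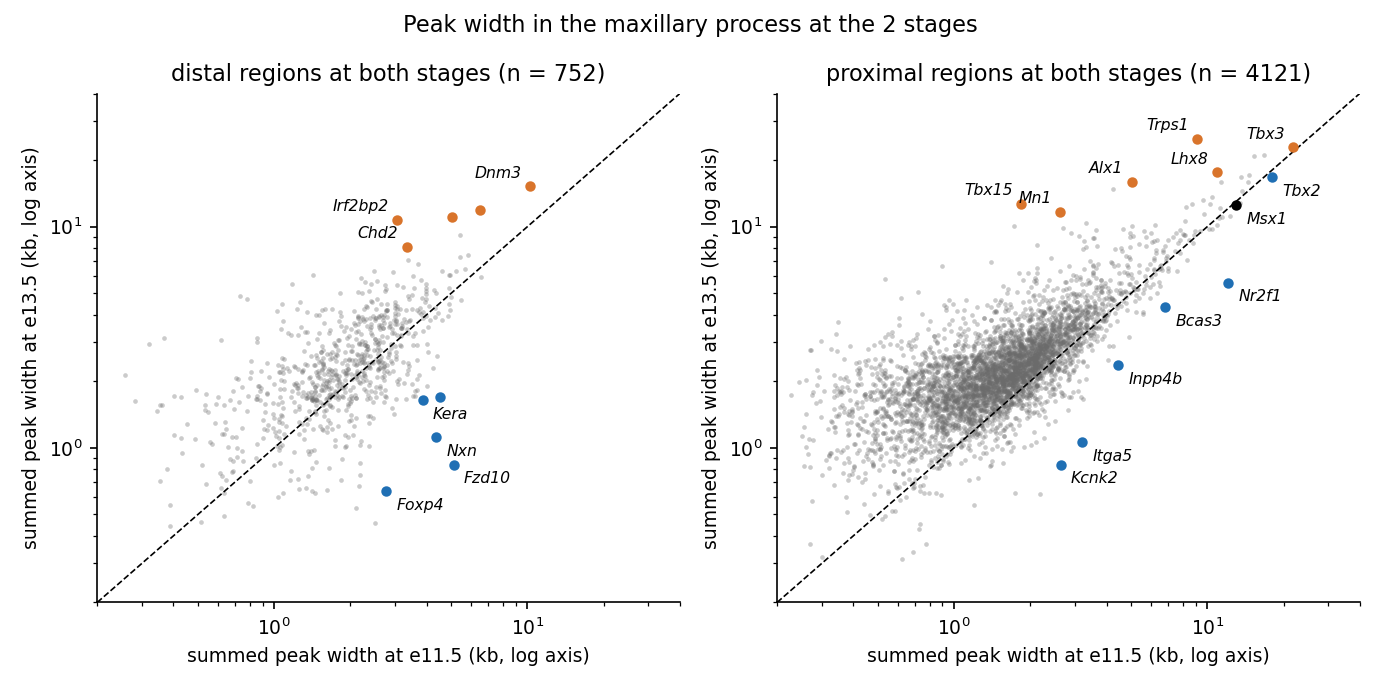
Summed peak width in kb at e11.5 (horizontal) and e13.5 (vertical), both on log axes, for 752 distal and 4121 proximal regions found at both stages, each point 1 region and the dashed line equal width, with named regions that were wider at e13.5 in orange, narrower in blue and Msx1 in black. Most points lie above the line, 523 of the distal and 3619 of the proximal regions.

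Several of the 10 widest peaks of each library lay over transcription factor genes of the facial mesenchyme. Tbx3, a T-box factor, had the widest peak at e11.5, 20653 bp, and one of 20866 bp at e13.5. Tbx2 measured 17986 bp and 16689 bp. Twist1, which neural crest mesenchyme needs to keep its identity, measured 14416 bp and 15930 bp, and Msx1, a homeobox gene required for the palate and the teeth, 12943 bp and 12538 bp. Prrx1 measured 12253 bp and 11129 bp. These 5 domains differed by less than 1.5-fold between stages. The other wide peaks of the e11.5 list lay over Mab21l2 and Lrba (14608 bp), Tnrc18 (13692 bp), a replication histone cluster of chromosome 13 (11183 bp), Dnm3os within Dnm3 (11174 bp) and Id3 (11163 bp). At e13.5 the widest peak lay over Trps1 (24986 bp), a GATA-type repressor that acts in skeletal development, and Lhx8 (17608 bp), a LIM-homeobox gene of the maxillary mesenchyme, Zfhx4 (16805 bp) and Ebf3 (16644 bp) had joined the top 10. So had another stretch of histone genes of chromosome 13 (15850 bp), and a Dnm3 intron (15289 bp) took the last place. The e11.5 peaks that overlapped these domains summed to 10950 bp at Lhx8, 13593 bp at Zfhx4 and 0 bp at Ebf3. They summed to 11377 bp at the histone stretch and 10206 bp at the Dnm3 intron. The Zfhx4 and histone sums came from more than 1 peak, so no single peak there reached the e11.5 top 10.

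Some promoter domains spread widely between the stages. Several of the shared proximal regions with the largest gain lay at developmental regulators. The Trps1 region measured 9136 bp at e11.5 and 24986 bp at e13.5. The Alx1 region, at a homeobox gene of the frontonasal and maxillary mesenchyme, measured 5044 bp and 15953 bp. The region of Tbx15, a T-box gene of mesenchyme and skeleton, measured 1843 bp and 12707 bp, and that of Mn1, a cofactor needed for the palate, 2624 bp and 11683 bp. The wide Mn1 peak was not among the 6571 strongest of the e13.5 list, so that Mn1 was an e11.5-only call at equal yield, while the Trps1, Alx1 and Tbx15 regions kept their widths. Tbx15 was marked at e11.5 in no tissue but the maxillary process and at e13.5 again in the maxillary process alone, with 2268 to 5766 bp in the e15.5 libraries. Trps1, in contrast, had 4508 to 5653 bp in each of the other 3 e11.5 libraries.

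Few promoter domains shrank. The region of Nr2f1, which encodes the nuclear receptor COUP-TFI, measured 12103 bp at e11.5 and 5579 bp at e13.5. Counting only peaks within 1 kb of a Nr2f1 TSS, the values were 12103 bp and 2638 bp. The mandibular process showed 8046 bp and 5304 bp at the same promoter. The other large losses were at Bcas3 (6837 bp and 4318 bp), Itga5, the fibronectin receptor subunit (3192 bp and 1058 bp), Inpp4b (4446 bp and 2357 bp) and Kcnk2 (2634 bp and 840 bp). Bcas3 also had 4 distal regions found only at e11.5, as many as any gene.

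At the level of genes, the promoter calls were one-sided. A protein-coding gene was counted at a stage when a peak lay within 1 kb of any of its start sites. Of 21911 genes, 4383 had a promoter peak at both stages, 119 only at e11.5 (0.543%), 4697 only at e13.5 (21.4%) and 12712 at neither. The promoter width of the shared genes had a median log2 ratio of 0.55 (interval 0.53 to 0.58), and 47.7% of them were at least 1.5-fold wider and 1.25% at least 1.5-fold narrower at e13.5. These shares are the background for the gene groups that follow, each chosen with earlier results of these data known. At equal yield 2468 of the 4697 e13.5-only genes kept that call (11.3% of all genes), and 399 of the 4383 shared genes became e11.5-only calls, which with the 119 made 518 (2.36%). In 47 of the 4697 genes an e11.5 peak farther than 1 kb from the TSS merged with the e13.5 peak.

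Patterning genes of the maxilla and palate were found at either stage alone or at both. Of 22 genes, 3 had a promoter peak only at e11.5 (13.6%, against 0.543% of all genes), 4 only at e13.5 (18.2%, near the 21.4% of all genes), 9 at both and 6 at neither. At equal yield 5 were found only at e11.5 (22.7%) and 3 only at e13.5 (13.6%). The e11.5-only genes were Dlx1, Dlx2 and Msx2. Dlx1 and Dlx2 are neighbouring homeobox genes that pattern the upper part of the first arch, and their peaks measured 4860 bp (chr2:71528684-71533543) and 7855 bp (chr2:71539147-71547001) at e11.5 with none at e13.5. In the mandibular process at e11.5 a single peak of 18594 bp covered both genes, and the nasal plates had none. At e13.5 Dlx2 had 3884 bp in the mandibular process and Dlx1 617 bp in the nose. The library labelled e15.5 maxillary process had a peak in both regions, and the one labelled e15.5 nose had one in the Dlx2 region. Msx2, an osteogenic homeobox gene, had a narrow peak of 889 bp at e11.5.

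The e13.5-only genes of this group were Osr1, Osr2, Shox2 and Gsc. Osr1 and Osr2 are zinc-finger genes, and Osr2 patterns the palate and the tooth field. Osr1 measured 9310 bp (chr12:9573782-9583091) and Osr2 6370 bp (chr15:35295428-35301797) at e13.5. Osr2 had no promoter peak in any of the 4 e11.5 libraries and had one in the nose at e13.5 (8747 bp). The mandibular process had an Osr1 peak of 2874 bp at e11.5 and of 9410 bp at e13.5. Shox2, which acts in the anterior palate, measured 5179 bp at e13.5 and was marked in the medial nasal plate at e11.5 (5687 bp). Gsc, a homeobox gene of the arch, measured 3256 bp, and it already had 7801 bp in the mandibular process at e11.5. Osr1, Osr2 and Shox2 kept their stage at equal yield, whereas the Gsc peak was lost. Equal yield leaves the e11.5 list whole, so it cannot change the calls for Dlx1, Dlx2 and Msx2.

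Of all shared genes 47.7% were at least 1.5-fold wider at e13.5 and 1.25% at least 1.5-fold narrower. Of the 9 patterning genes at both stages, 5 were that much wider and none that much narrower. Besides Mn1 and Lhx8 (10950 bp and 17608 bp) these included Tfap2a, an AP-2 gene of neural crest and face (3670 bp and 8214 bp), and Tgfb3, the ligand needed for palate fusion (1202 bp and 2469 bp). Pdgfra, the receptor of the facial mesenchyme, changed little (8913 bp and 9586 bp), as did Lhx6, the partner of Lhx8 (5715 bp and 5435 bp). Lhx6 was marked in the maxillary process at both stages and in the mandibular process at e13.5, and in none of the other 7 libraries. Pou3f3, a POU gene of the maxilla, was narrower at e13.5 (4050 bp and 2925 bp). At equal yield Mn1 and Pou3f3 had a peak only at e11.5, while Lhx8, Tfap2a and Tgfb3 kept their widths. Barx1, Pax9 and Meox2 had no promoter peak at either stage in the maxillary process. Barx1 had 3 distal peaks at e11.5 and 0 at e13.5. Pax9 was marked in both nasal plates at e11.5 and in the nose at e13.5.

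**Figure D3:**
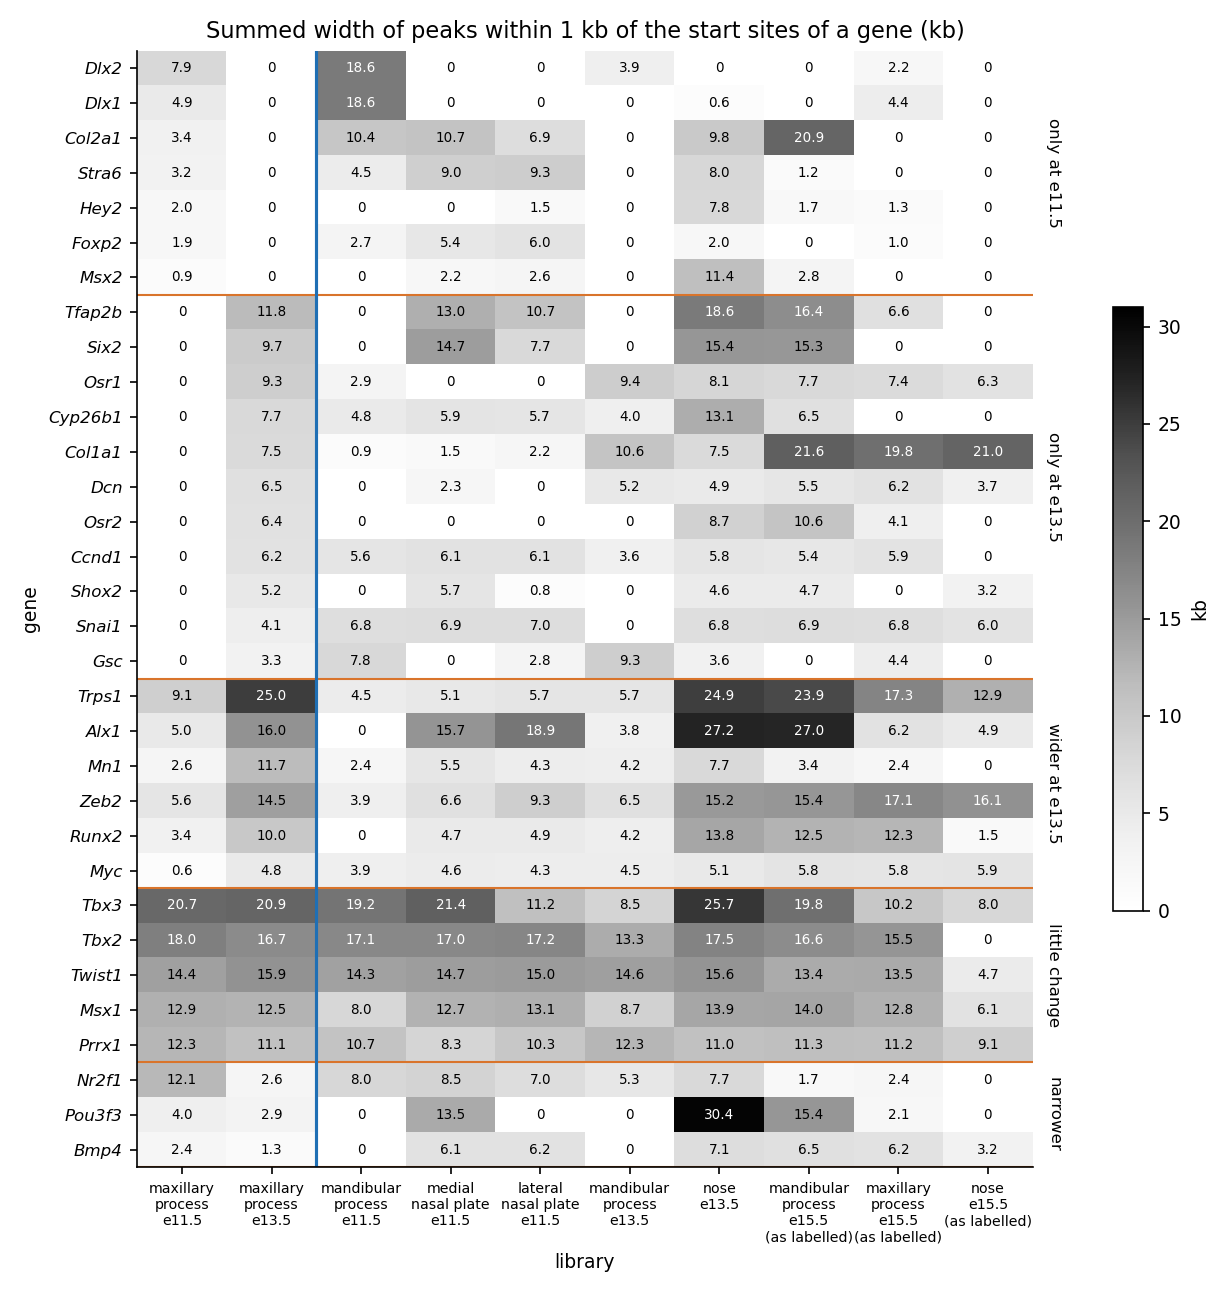
Summed width in kb of the peaks within 1 kb of the start sites of named genes (rows) in the 10 libraries (columns), darker shades for wider peaks and 0 where no peak was called, with the maxillary libraries left of the blue line and orange lines between groups of genes. Dlx1, Dlx2 and Col2a1 have a maxillary peak only at e11.5, Osr1, Osr2, Shox2, Tfap2b and Col1a1 only at e13.5, and Tbx3 and Twist1 keep wide peaks at both stages.

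The calls for frontonasal factors depended on the number of peaks taken. Of 12 genes, 3 were found only at e13.5 (25%, near the 21.4% of all genes), 0 only at e11.5 and 6 at both stages. Of these 6, 4 were at least 1.5-fold wider at e13.5 and 1, Nr2f1, narrower, against 47.7% and 1.25% of all shared genes. Tfap2b, an AP-2 gene, had an 11776 bp peak at e13.5 and none at e11.5, while the nasal plates had 13025 bp and 10734 bp at e11.5. Six2 measured 9676 bp in 2 peaks at e13.5, against 14702 bp and 7654 bp in the nasal plates at e11.5. Pax3, a neural crest gene, measured 2700 bp and 9886 bp, and Nr2f2 3648 bp and 9227 bp. The peaks of Tfap2b and Six2 were not among the 6571 strongest of the e13.5 list. At equal yield 0 of the 12 genes were found only at e13.5 and 2 only at e11.5, Nr2f1 and Nr2f2, so that the wider Nr2f2 peak was lost as well, while Pax3 kept both widths.

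Among 28 facial mesenchyme genes, 15 were marked at both stages, 5 only at e13.5 and 1 only at e11.5, or 17.9% and 3.57% of the list, against 21.4% and 0.543% of all genes. The e13.5-only genes were Ebf1, Foxd1, Foxp1, Snai1 and Snai2, the last pair encoding zinc-finger repressors of epithelial genes. Snai1 measured 4118 bp and Snai2 3574 bp. Snai1 had 6793 to 6962 bp in each of the other 3 e11.5 libraries, and Snai2 had 1664 to 1935 bp. Foxp2, a forkhead gene, had 1942 bp at e11.5 and none at e13.5, and had 2045 bp in the nose at e13.5. Of the 15 shared genes, 8 were at least 1.5-fold wider at e13.5, against 47.7% of all shared genes. Among the 8 were Nfia and Nfib of the nuclear factor I family (1548 bp and 8325 bp, 4646 bp and 9712 bp). Meis1 (3304 bp and 10353 bp) and Zeb2 (5649 bp and 14547 bp) were others. Ebf3 had a 931 bp peak at e11.5 at 1 start site and a 16644 bp peak at e13.5 at another. It was counted as shared, although both merged regions were single-stage, and the wide peak was not kept at equal yield.

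Most cartilage genes had no promoter peak, as was so for 58.0% of all genes. Of 17 chondrocyte genes, 3 were marked only at e11.5 and 3 only at e13.5 (17.6% each, against 0.543% and 21.4% of all genes), 1 at both and 10 at neither. Col2a1, the main collagen of cartilage, had 3441 bp at e11.5 and none at e13.5, against 10352 bp, 10688 bp and 6928 bp in the other e11.5 libraries and 9820 bp in the nose at e13.5. Col11a1 (764 bp) and Sox5 (327 bp) had narrow peaks at e11.5 only. Sox9, the master regulator of cartilage, had 2258 bp at e13.5 and none at e11.5, with Sox6, its partner, at 4452 bp and Col9a2 at 2197 bp. No e13.5-only chondrocyte gene was kept at equal yield, which cannot change an e11.5-only call such as Col2a1.

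For the bone lineage, Col1a1, the main collagen of bone and skin, had 7527 bp at e13.5 and none at e11.5, where the other libraries had 923 to 2207 bp. At e13.5 the mandibular process had 10628 bp. Col1a2 was unchanged in width (3304 bp and 3335 bp). Runx2, the master regulator of osteoblasts, had a peak at its downstream start site at both stages, in the region chr17:44731706-44737299 (3438 bp and 5594 bp). A second region, chr17:44810178-44814541, lay beside the upstream start site whose 250 bases are printed above. It held a 4364 bp peak at e13.5 and none at e11.5, and this peak was lost at equal yield, where the downstream one remained. The longer protein made from the upstream promoter is the form best known from osteoblasts. The upstream region was also seen in 1 other e11.5 library, 1 other e13.5 library and 2 of the e15.5 libraries. Dlx5, a bone and arch gene, had 2483 bp at e13.5 only, a peak lost at equal yield.

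Connective tissue genes were the developmental list with the largest share of e13.5-only promoters, 10 of 21 (47.6%, against 21.4% of all genes), with 5 at both stages and 0 at e11.5 only. Dcn and Lum, small proteoglycans that organise collagen fibrils, measured 6451 bp and 2936 bp at e13.5. The collagen VI genes Col6a1, Col6a2 and Col6a3 measured 2033, 2890 and 3141 bp, Col5a1 2938 bp, and Fbn1, a fibrillin, 2345 bp. Postn (2508 bp), Thbs2 (2386 bp) and Osr1 completed the 10. In the other e11.5 libraries Dcn was marked only in the medial nasal plate (2342 bp), and Col6a1 in none. At equal yield 3 of these genes remained, Col5a1, Fbn1 and Osr1, which was 14.3% of the list against 11.3% of all genes.

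Signalling lists differed in how many members were marked at both stages, from 8 of 13 Hedgehog genes to 5 of 16 retinoic acid genes. Of 28 Wnt genes, 14 were shared and 1, Rspo3, a secreted enhancer of Wnt signalling, was found only at e13.5 (3270 bp), though not at equal yield. That share of 3.57% was below the 21.4% of all genes. Wnt5a, a ligand of facial outgrowth, measured 9722 bp and 11421 bp, Fzd2, a receptor, 10407 bp and 8245 bp, and Lrp5, a coreceptor, 619 bp and 2813 bp. Of 13 Hedgehog genes, 8 were shared. The 2 e13.5-only genes (15.4%, against 21.4% of all genes) were Cdon, a coreceptor (5430 bp), and Disp1, which releases the ligand (1351 bp). The receptor Ptch1 measured 6148 bp and 11939 bp, and the coreceptor Boc 2004 bp and 5314 bp.

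Among 28 BMP and TGF-beta genes, 8 were found only at e13.5 (28.6%, against 21.4% of all genes) and 15 at both stages. None was found only at e11.5, against 0.543% of all genes. The 8 e13.5-only genes included the ligands Bmp2 (1251 bp), Bmp7 (2075 bp) and Tgfb2 (2808 bp) and the receptors Tgfbr2 (2852 bp) and Tgfbr3 (3177 bp). The others were the antagonist Chrd (852 bp), the transducer Smad4 (668 bp) and the target Id4 (2877 bp). The ligand Bmp4 was narrower at e13.5 (2356 bp and 1281 bp), and at equal yield it had a peak only at e11.5. Of the 8 e13.5-only genes, Tgfb2, Tgfbr2, Tgfbr3 and Id4 kept that call at equal yield (14.3% of the list, against 11.3% of all genes). Id4 then had 502 bp of its 2877 bp. In the FGF list 3 of 19 genes were found only at e13.5 (15.8%, against 21.4% of all genes). They were Fgfr1 (4894 bp), Spry1, a feedback inhibitor (2238 bp), and Fgf10, a mesenchymal ligand (3573 bp). Equal yield left 3298 bp at Fgfr1, 1172 bp at Spry1 and no peak at Fgf10. Fgfr2 measured 3420 bp and 10904 bp. Il17rd, an inhibitor of FGF signalling, had the second widest e11.5-only proximal region (6559 bp), but kept other promoter peaks, with 7581 bp at e11.5 and 2173 bp at e13.5 in all.

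For retinoic acid, Stra6, the cellular importer of retinol, had 3188 bp at e11.5 and none at e13.5, whereas Cyp26b1, which degrades retinoic acid, had 7664 bp at e13.5 and none at e11.5. Cyp26b1 had 4826 to 5881 bp in the other 3 e11.5 libraries, and Stra6 had 4518 to 9342 bp in them and 8037 bp in the nose at e13.5. The receptor genes Rarb and Rxrb were also e13.5-only, which made 3 of 16 genes (18.8%, against 21.4% of all genes). The 1 e11.5-only gene, Stra6, was 6.25% of the list, against 0.543% of all genes. Rarb had no peak at equal yield. In the Notch list of 15 genes the target Hey2 (2005 bp) was found only at e11.5 and its relative Hey1 (1144 bp) only at e13.5. Each was 6.67% of the list, against 0.543% and 21.4% of all genes. Hes1 measured 803 bp and 4771 bp. The e13.5 peaks of Hes1 and Hey1 were lost at equal yield, so that Hes1 became an e11.5-only call and Hey1 had no peak.

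General cellular genes took part in the change. Of 87 genes of mitochondrial respiration, 56 were found only at e13.5 (64.4%, against 21.4% of all genes), 19 at both stages and 12 at neither. Of these 87, 36 (41.4%) stayed e13.5-only at equal yield, against 11.3% of all genes. For ribosomal proteins the e13.5-only share was 19 of 82 (23.2%), near that of all genes, and 60 were shared. Of 29 cell cycle genes, 10 were e13.5-only (34.5%, against 21.4% of all genes), among them Mki67, Pcna, Top2a and Ccnd1. The 2 e11.5-only genes (6.90%, against 0.543%) were Plk1 (1478 bp) and Ccne2 (530 bp). Equal yield left 7 cell cycle genes e13.5-only (24.1%, against 11.3%) and made 5 e11.5-only (17.2%, against 2.36%). Mki67 then had no peak. Ccnd1, which encodes cyclin D1, measured 6181 bp at e13.5 and 5633 to 6140 bp in the other 3 e11.5 libraries, and 1809 bp of e11.5 peak lay in the same merged region. Of 14 housekeeping genes, 5 were e13.5-only (35.7%, against 21.4% of all genes), among them B2m, Hprt, Sdha and Tbp. Tbp had 663 bp of e11.5 peak in the same merged region. Equal yield left 3 housekeeping genes e13.5-only (21.4%, against 11.3% of all genes), and B2m and Hprt then had no peak. Missing promoter peaks at e11.5 thus included genes that all cells express. Immediate early genes, which respond to handling as well as to signals, were e13.5-only in 6 of 18 cases (33.3%, against 21.4% of all genes). Among them were Fosl2 (5928 bp) and Egr1 (1033 bp). Equal yield left 2 of the 18 e13.5-only (11.1%, against 11.3% of all genes), and Egr1 then had no peak. Of 67 replication histone genes, 58 were shared. In a list of 16 early growth genes, the RNA-binding Lin28b (1128 bp) and the pluripotency factor Sall4 (364 bp) were e11.5-only, Igf2 (3632 bp) was e13.5-only, and Myc measured 618 bp and 4769 bp.

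**Figure D4:**
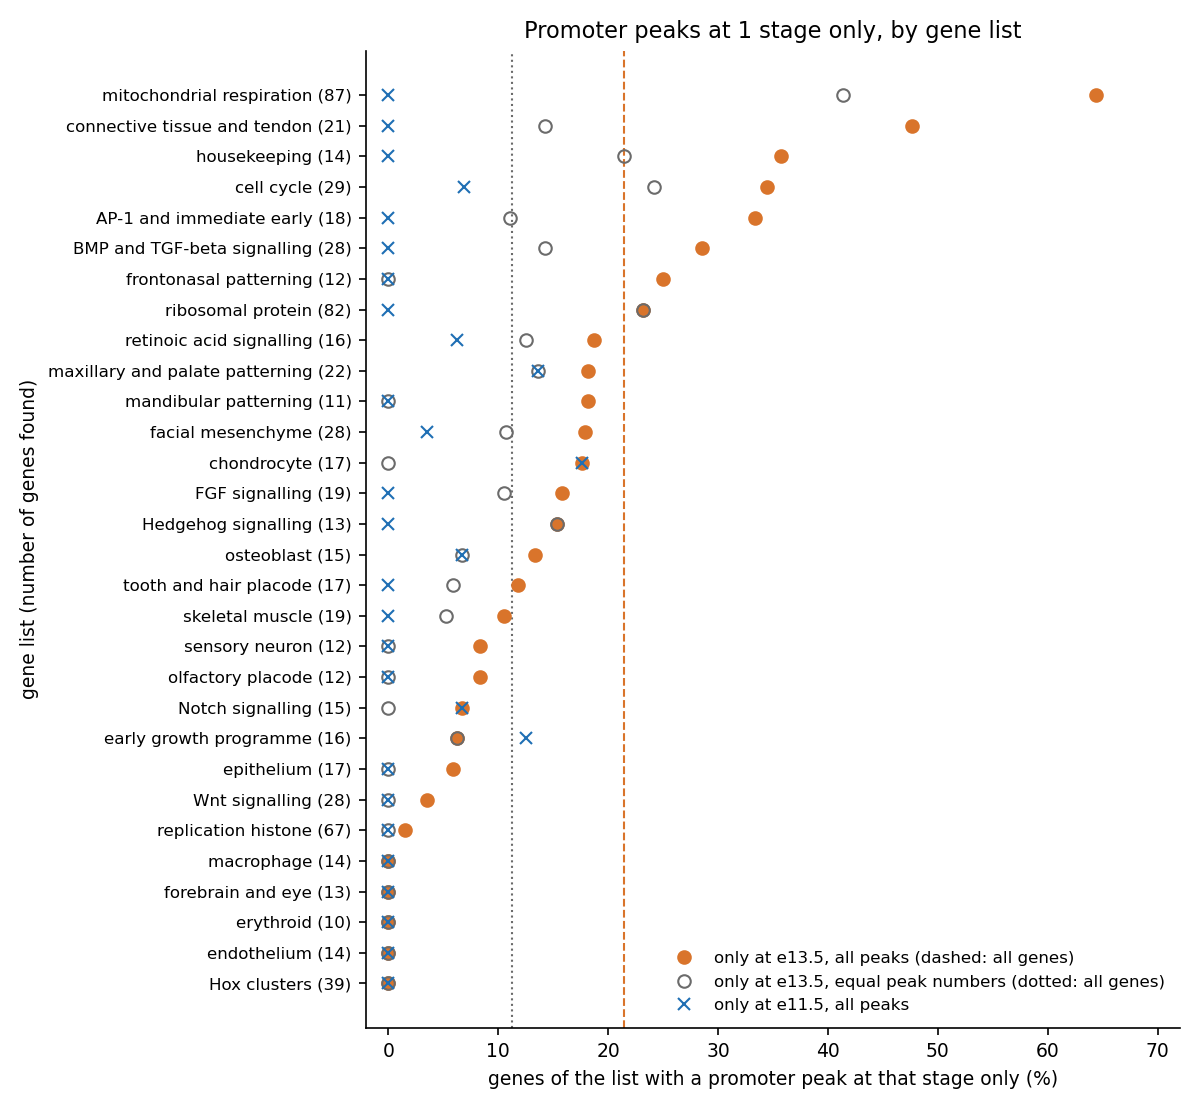
Percentage of the genes of each list of at least 10 genes with a promoter peak only at e13.5 (orange points, and open circles with equal numbers of peaks per library) and only at e11.5 (crosses), with lines at the e13.5-only value of all 21911 protein-coding genes, 21.4% with all peaks (dashed) and 11.3% with equal numbers (dotted). Mitochondrial respiration (64.4%) and connective tissue (47.6%) lie highest for e13.5 only, and the chondrocyte (17.6%) and maxillary patterning (13.6%) lists lie highest for e11.5 only.

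The lists for other cell types were close to empty in both libraries. Promoter peaks were absent at both stages for 10 of 10 erythroid, 14 of 14 macrophage, 13 of 14 endothelial, 16 of 17 epithelial and 17 of 19 skeletal muscle genes. Among all 21911 genes 58.0% lacked a peak at both stages, which is the background for each count of this paragraph. The exceptions included Fli1, an ETS factor also active in neural crest (1976 bp and 3307 bp), Grhl2, an epithelial factor (939 bp at e13.5), and Tnnt3 (4328 bp at e13.5, with 2772 bp of e11.5 peak in the same merged region). At equal yield Fli1 had a peak only at e11.5 and Grhl2 none. Each of the glial, sensory neuron, olfactory, forebrain and melanocyte lists had at least 7 genes without a peak. Of 11 mandibular patterning genes, 8 lacked one, and Ednra, the endothelin receptor of the arch, measured 2089 bp and 2189 bp. Of 17 tooth and hair placode genes, 11 lacked one, and Sostdc1, a BMP and Wnt antagonist, had 5090 bp at e13.5 only, with 1964 bp of e11.5 peak in the same merged region. All 39 Hox genes lacked a peak at both stages, and the first arch does not express Hox genes. The mesenchyme markers Prrx1, Twist1 and Pdgfra had wide peaks in both libraries. Of the Y-linked genes, 3 (Ddx3y, Eif2s3y and Uty) had a peak at e13.5 and 0 at e11.5, and Xist had 1373 bp at e11.5 and 2054 bp at e13.5. The part of embryo sex in the other differences was not tested.

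Distal regions were next examined one by one. The 5 widest found only at e11.5 lay in an intron of Capzb (chr4:139265170-139270580, 5411 bp), beside Pitpnb (chr5:111392925-111397675, 4751 bp), in introns of Bcas3 (chr11:85624665-85629238, 4574 bp) and Bcor (chrX:12134261-12138494, 4234 bp), and in a stretch of chromosome 12 without a coding TSS within 100 kb (chr12:27060041-27064204, 4164 bp). Only the Bcas3 region was absent from every e13.5 and e15.5 library, and it was present in both nasal plates at e11.5. The Capzb region was found in 6 of the other 8 libraries and the Pitpnb region in 7. The Pitpnb region lies between Pitpnb and Mn1. At −log10 q of at least 2, the Pitpnb region alone kept its peak among these 5.

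The 5 widest distal regions found only at e13.5 lay 21116 bp from Snai1 (chr2:167559311-167566521, 7211 bp), 14269 bp from Twist1 (chr12:33971940-33978982, 7043 bp), in an intron of Fsip1 (chr2:118157552-118164075, 6524 bp), beside Igf2r (chr17:12778654-12783954, 5301 bp) and beside Mrpl23 (chr7:142525261-142530399, 5139 bp). They were wide but of low rank, since none was among the 6571 strongest peaks and only the Snai1 region reached −log10 q of 2. The region beyond Twist1 was present in 1 other e11.5 library, the lateral nasal plate, and in the nose at e13.5. The Igf2r region was found in all of the other 8 libraries.

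Among distal regions of both stages, the largest gains were between 4796 and 7684 bp. A region 65328 bp from Irf2bp2 measured 3053 bp at e11.5 and 10737 bp at e13.5, where its peak was not among the 6571 strongest. The Dnm3 region whose centre is printed above, chr1:162012965-162028253, measured 10206 bp and 15289 bp. Dnm3 hosts the antisense transcript Dnm3os, the precursor of microRNAs of mesenchyme and skeleton. The peaks within 1 kb of a Dnm3os TSS measured 11174 bp and 11673 bp. All e13.5 peaks that overlapped the e11.5 peak there summed to 20797 bp. Dnm3 had 7 distal regions found only at e13.5, more than any other gene, besides 5 shared ones and 1 found only at e11.5. The largest losses were 16077 bp from Fzd10, a Wnt receptor (5107 bp and 839 bp), in an intron of Nxn, a regulator of Wnt signalling (4367 bp and 1115 bp), and beside Kera and Foxp4 (3857 bp and 1646 bp, 2776 bp and 636 bp).

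Most genes with a distal region of a single stage had 1 such region, 731 of 840 genes for e11.5 and 690 of 780 for e13.5. The genes with the most are named here as a description. Bcas3, Smyd3, Ptn, Zfp608, Tanc1 and Rbms3 each had 4 that were found only at e11.5. Ptn encodes pleiotrophin, a growth factor of mesenchyme, and had no distal region at e13.5. After Dnm3, the largest numbers of e13.5-only regions were at Cstad and Usp29 with 5 each and at Nfib and Zfp217 with 4 each. Nfib, a nuclear factor I gene required in several developing organs, had a promoter 4646 bp wide at e11.5 and 9712 bp at e13.5. Of its 4 e13.5-only distal regions, only chr4:82535714-82539316 was absent from the other e11.5 libraries too. Ror2, the receptor of Wnt5a, and Creb3l1, a transcription factor of bone matrix secretion, had 3 e13.5-only regions each.

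The imprinted Igf2 and H19 locus was less covered at e11.5 over a long stretch of chromosome 7, and it was chosen after its values were seen. Igf2 encodes a fetal growth factor, H19 a noncoding RNA, and their shared enhancers lie downstream of H19 towards Mrpl23. From Tnnt3 to Igf2 (chr7:142498836-142666816), the peaks covered 17563 bp at e11.5 and 53574 bp at e13.5. Of 14 regions there, 6 were found only at e13.5, 7 at both stages and 1 only at e11.5. The H19 region chr7:142570013-142579059 held 3128 bp of peak at e11.5, none of it within 1 kb of the TSS, and 9047 bp at e13.5. The other 8 libraries had 7526 to 11404 bp at the H19 TSS, and the other 3 e11.5 libraries covered 47110 to 51612 bp of the locus, while the library labelled e15.5 nose covered 18136 bp. The maxillary e11.5 library thus stood below the other e11.5 libraries here.

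Presence in the other libraries also differed between the classes. Distal regions of both stages were found in at least 1 of the other 8 libraries in 752 of 752 cases. Distal regions found only at e13.5 were seen in 96.7% of cases (994 of 1028) and those found only at e11.5 in 69.2% (911 of 1317), which left 406 that no other library held. Of the e13.5-only distal regions, 81.1% (interval 78.6 to 83.5) had a peak in another e11.5 library, most often the lateral nasal plate (72.7%). Of the e11.5-only ones, 64.2% (61.6 to 66.8) had a peak in another e11.5 library and 56.6% (53.8 to 59.3) in another e13.5 library, nearly all of the latter in the nose (56.0%) and few in the mandibular process (5.92%). The nose list was the longest, with 25941 peaks, and the mandibular list at e13.5 held 6887. Proximal regions behaved alike, with 88.2% of the e13.5-only ones found in another e11.5 library and 82.1% of the e11.5-only ones in another e13.5 library.

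**Figure D5:**
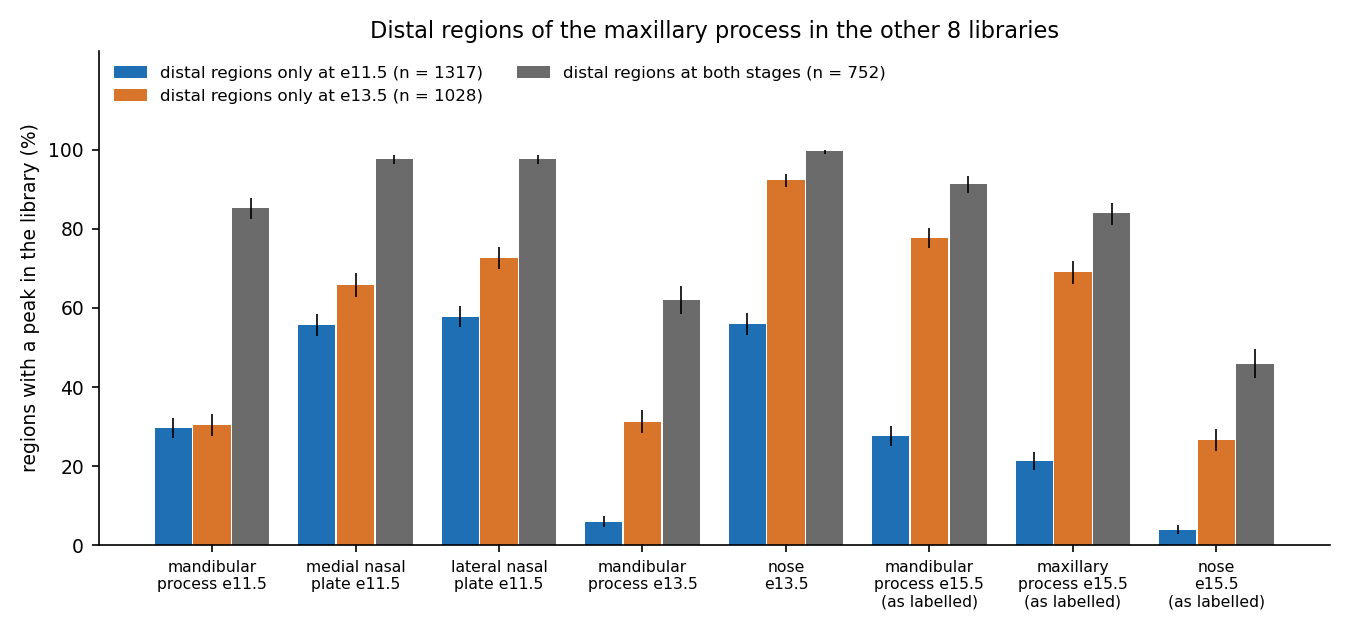
Percentage of the distal regions of each class (bars, starting at 0) that had a peak in each of the other 8 libraries, with exact 95% intervals for counting error. In every library the regions of both stages were found most often. The e11.5-only regions range from 3.87% in the library labelled e15.5 nose to 57.8% in the lateral nasal plate at e11.5.

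Regions whose stage held in other facial tissues were few. Only 73 of the 1317 e11.5-only distal regions (5.54%, interval 4.37 to 6.92) were present in at least 2 other e11.5 libraries and in no later library. Besides the Bcas3 intron they included introns of Col23a1 (chr11:51388790-51391669, 2880 bp) and Msrb3 (chr10:120853248-120855941, 2694 bp). In the other direction, 118 of the 1028 e13.5-only distal regions (interval 9.59 to 13.6%) were present in at least 2 other libraries of e13.5 or e15.5 and in no e11.5 library. The widest was in an intron of Nfib (chr4:82535714-82539316, 3603 bp). For proximal regions the numbers were 6 of 235 and 368 of 4743 (7.76%), and the widest of the latter lay at Osr2 (6370 bp), Ogn, which encodes the proteoglycan osteoglycin (3936 bp), and Rspo3 (3270 bp). The Osr2 region was absent from all 4 e11.5 libraries and, besides the maxillary process at e13.5, present in 1 other e13.5 and 2 e15.5 libraries.

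Base composition differed between the classes in a way that the merging did not use. Over the central 1000 bp, the median GC content was 45.5% in e11.5-only, 49.7% in e13.5-only and 49.95% in shared distal regions. The median e11.5-only distal region was 766 bp wide, so for most of them this window took in sequence outside the peak. The e13.5-only median was 1366.5 bp. The part of region width in the differences of base composition and motifs was not tested. A CG dinucleotide ratio (observed over expected) of at least 0.6 was found in 7 e11.5-only (0.532%, interval 0.214 to 1.09), 103 of 1028 e13.5-only and 82 shared distal regions (10.9%, 8.77 to 13.4). Proximal regions showed the same order at higher levels, with 28.5%, 71.4% and 76.5%. A coding TSS lay within 1 kb of 72.8% of e11.5-only proximal regions, against 95.9% of e13.5-only and 94.9% of shared ones.

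Short motifs followed base composition in part. Letters were searched on both strands of the central 1000 bp, and a match is only a description. GGGCGG, the core of SP/KLF sites, occurred in 17.3% of e11.5-only, 39.8% of e13.5-only and 38.3% of shared distal regions, against 29.9% of all distal regions. TAATTA, a homeodomain core, occurred in 23.9%, 17.5% and 17.2%, against 20.1% of all. When regions were divided by GC content into 3 bands, the homeodomain shares of the 3 classes were 31.1%, 31.6% and 32.2% in the lowest band, 18.7%, 17.5% and 20.7% in the middle one and 13.9%, 10.02% and 7.89% in the highest, so that e11.5-only regions held TAATTA most often in the highest band alone. GGGCGG was least frequent in e11.5-only regions in each band, with 7.47%, 17.2% and 14.8% in the lowest, 20.3%, 33.5% and 27.6% in the middle and 39.0%, 56.2% and 56.7% in the highest. CTTTGAT, the TCF/LEF letters of Wnt signalling, occurred in 19.3%, 12.8% and 13.4% of the classes, with 21.9%, 16.8% and 14.8% in the lowest band, 17.8%, 16.9% and 16.1% in the middle one and 14.7%, 7.84% and 10.8% in the highest. The classes thus lay closest to each other in the middle band.

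Part of the CG-rich distal regions lay at start sites that the main annotation did not hold, a comparison added after the data were seen. RefSeq tRNA genes lay within 1 kb of 2 e11.5-only (0.152%), 32 e13.5-only (3.11%) and 16 shared distal regions (2.13%), and of 21 of the 103 CG-rich e13.5-only ones. Of 403 RefSeq tRNA genes, 64 (15.9%) had a peak within 1 kb at e11.5 and 138 (34.2%) at e13.5, and the other 8 libraries had 25.3% to 41.7%. Another RefSeq TSS lay within 1 kb of 4.25%, 10.9% and 12.9% of the 3 distal classes. Without all of these, 1260, 895 and 644 distal regions remained.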

How the data were processed

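H3K27ac ChIP-seq was done by the authors on dissected wild-type mouse facial tissue. Tools listed in the submitters' processing notes are MACS2 2.2.4, BWA 0.7.7 and SAMtools 0.1.19. The build listed there is mm10. The study's methods describe MACS2 broad peak calling with a q-value limit, in a passage that names only the human genome. The labels describe freshly dissected tissue, whereas the study's methods describe frozen tissue. The deposited broad peak lists, called per library by the authors, give a score, a fold enrichment (a ratio) and −log10 of the p-value and of the q-value for each peak. No peak of these lists had a −log10 q under 1.3. Scores, fold values and −log10 q values are computed within a list, so they were used here only to rank or filter peaks within it. The number of reads behind a list is not known, and a region without a called peak can hold signal. The 10 input samples were not used here.

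Only chromosomes 1 to 19, X and Y entered, and the peaks of both maxillary libraries were merged where they overlapped or touched. Start sites came from GENCODE M21 (132629 positions), and a region farther than 1 kb from all of them was distal. Distal regions took the closest coding start site up to 100 kb away as their gene. A region was found in another library when it shared 1 bp or more with a peak. CG ratios and motifs were read from the GRCm38 genome. Shares have exact Clopper-Pearson 95% intervals, and medians have order-statistic intervals. With 1 library per stage no test was run. Scripts were tested on simulated peak lists. Python 3.11.15, pandas 2.3.3, numpy 2.4.6, SciPy 1.17.1 and matplotlib 3.10.9 were used.

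The text names the 5 widest distal and proximal regions of each single stage, the 5 that gained and the 5 that lost most width among those of both stages, the 10 widest peaks of each library, the 10 genes with most single-stage distal regions, and, in each of 33 gene lists, members marked at 1 stage and up to 4 others by change. Some items that the rule names are not reported here. Genes outside this rule are named for their known role or to complete a comparison. The members and lists were chosen with earlier results of these data known. Alternatives were a −log10 q minimum of 2, equal numbers of peaks per list, no peaks under 500 bp, merging across 1 kb, overlap of at least a set share of the smaller peak set, a 2.5 kb promoter window and start sites of coding genes alone. Equal-yield calls for single genes and regions, a −log10 q of at least 2 for single regions, and the RefSeq and tRNA start sites were added after seeing the data.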

Additional observations from a re-analysis of the deposited data

Results flagged for a closer look

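The maxillary and mandibular processes moved in opposite directions between e11.5 and e13.5. The number of H3K27ac peaks differed by 4182 in the maxillary process (6571 at e11.5 and 10753 at e13.5) and by −1515 in the mandibular process (8402 and 6887). Promoters of protein-coding genes with a peak differed by 4578 (4502 and 9080) and by −179 (5449 and 5270). Both results stand here because the 2 jaw processes changed in opposite directions. The difference was not tested, since each process had 1 library per stage, and the depth of the libraries is unknown. Shared regions were wider at e13.5 in both processes, with a median log2 ratio of 0.28 for distal and 0.49 for proximal regions in the maxillary process and of 0.08 and 0.14 in the mandibular process. In the mandibular process 2203 distal regions were found only at e11.5, 1018 only at e13.5 and 707 at both.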

How the results depend on the processing

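Of 91 values under the alternatives, 69 stayed near the main value. The main order of the distal counts, 1317 at e11.5 only and 1028 at e13.5 only, turned with −log10 q of at least 2 and without peaks under 500 bp. With −log10 q of at least 2, distal regions numbered 511 at e11.5 only, 614 at e13.5 only and 419 at both stages, proximal e11.5-only regions numbered 135, the distal share was 16.6%, and 76.5% of e11.5-only distal regions had a peak in another e13.5 library. With equal numbers of peaks per list, e13.5-only distal regions numbered 220 and shared distal regions 333, of which 74.8% were wider at e13.5. Proximal regions numbered 706 at e11.5 only and 2321 at e13.5 only, and promoters of protein-coding genes 518 and 2468. The maxillary patterning list then turned from 3 genes at e11.5 only and 4 at e13.5 only to 5 and 3, and the frontonasal list from 0 and 3 to 2 and 0. The share of e11.5-only distal regions found in another e13.5 library was then 22.7%, and that of e13.5-only ones in another e11.5 library 55.9%. For these shares the other libraries were also cut to their 6571 strongest peaks. For the 76.5% above, the other libraries were filtered at −log10 q of at least 2 as well. Without peaks under 500 bp, distal regions numbered 831 at e11.5 only and 964 at e13.5 only, the distal share was 22.1% and the proximal median log2 ratio 0.47, while merging across 1 kb gave 0.52. The distal share was 22.9% with a 2.5 kb window and 30.6% with coding start sites alone, which left 141 proximal e11.5-only regions. The cause of these shifts was not tested, beyond the smaller peak sets that the filters leave. Of the 20 widest single-stage regions, 13 kept a peak at equal yield and 10 at −log10 q of at least 2, choices made after seeing the data. At equal yield the e11.5-only regions among them keep their peak by design, since the e11.5 list is left whole.

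No paired analysis was possible because the result comes from no test and each stage had 1 library, so leaving out a replicate was not possible either. Counts of single-stage regions follow the length of each list, and depth is unknown.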
